A study of Mus musculus with 6 samples.

Results

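The actin cytoskeleton genes described here are *Actb*, *Actg1*, *Tagln2*, *Tpm1*, *Tpm4*, *Vcl*, *Flna*, *Myl9*, *Srf* and *Vim*, 10 of the 16640 genes that the authors counted. They were taken by symbol, and were chosen on measured values of these libraries, in which replicate 3 of both conditions stood apart from replicates 1 and 2. The difference between replicate 3 and the other replicates is therefore given as a description, with no test. The comparison of the conditions is tested, although earlier results of these data were known when the genes were chosen.

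Actin exists in cells as single subunits and as filaments, and the cytoplasmic filaments of nonmuscle cells are built from β-actin (*Actb*) and γ-actin (*Actg1*). Free actin subunits hold the cofactors MRTF-A and MRTF-B back from the transcription factor SRF. When filaments grow, these cofactors reach SRF, which binds CArG boxes in the promoters of many cytoskeleton genes. In pancreatic β-cells the cortical actin filaments lie between the insulin granules and the plasma membrane and are remodelled during secretion. *Actb* is also widely used as a reference gene, to which quantitative PCR values of other genes are set, and the study set its own quantitative PCR to β-actin mRNA.

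MIN6 is a mouse β-cell line that secretes insulin, and the study asked what follows when its own *Thada* gene is transcribed more strongly. *Thada*-activated cells were a stable line that carried dCas9-VP64 and a guide RNA with MS2-P65-HSF1 directed to the *Thada* promoter, both brought in by lentivirus and selected with puromycin and G418. Control cells carried dCas9 and a non-targeting sgRNA. RNA was sequenced in 3 libraries per condition, and no label says whether these came from separate cultures. The study's reporting summary says of its in vitro work in general that it was repeated in 3 or more independent experiments, without naming the sequencing, so p-values measure the spread between these samples, which may be technical. Control replicates 1, 2 and 3 held 17272834, 17166511 and 17689611 counts. *Thada*-activated replicates 1, 2 and 3 held 17727004, 17385036 and 17224631 counts. Levels are given as normalized CPM, which is the estimated count per 1000000 counts after TMM scaling of the library size, or as FPKM, which also divides by gene length. FPKM is used where the genes described here are set in order and for the ratio of *Actb* to *Actg1*. The most abundant gene of a list was taken by mean normalized CPM, and sums over markers are in normalized CPM, neither of them per length.

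*Thada*, the targeted gene, had 28.1, 28.9 and 17.2 normalized CPM in the control libraries, in the order of their replicate numbers, and 57.3, 56.2 and 49.1 in the *Thada*-activated libraries. All 3 *Thada*-activated libraries were above all 3 control libraries, as the labels say. Of 12 β-cell markers, 11 passed the filter on low counts, and their summed level was 121846, 110644 and 142117 normalized CPM in the control libraries and 116609, 114710 and 125716 in the *Thada*-activated libraries, highest in replicate 3 of each condition. Of the 11, 8 were lowest in replicate 3 of both conditions, beside 39% of all tested genes, and 2, *Ins1* and *Ins2*, were highest. *Ins2* was the most abundant of them, while *Slc2a2*, the glucose transporter of mouse β-cells, lay between 0.0574 and 0.512 normalized CPM. Markers of other cell types were low: *Cdh5* and *Kdr* of endothelium, *Adgre1*, *Cd3e* and *Lyz2* of leukocytes, *Thy1* of fibroblasts, and *Acta2*, *Tagln* and *Des* of smooth muscle were at or under the floor of 3 counts (0.169 to 0.175 CPM) in every library. The summed levels in control replicates 1, 2 and 3 and then *Thada*-activated replicates 1, 2 and 3 were 3.28, 2.85, 4.99, 3.21, 3.85 and 6.37 normalized CPM for 5 fibroblast markers, with *Col1a1* the most abundant. For 7 smooth muscle and pericyte markers they were 0.715, 0.233, 0.997, 0.394, 0.575 and 1.59. For 5 endothelial markers, led by *Pecam1*, they were 0.761, 0.640, 1.78, 0.732, 0.805 and 1.48, and for 4 leukocyte markers, led by *Cd68*, 1.17, 0.640, 0.459, 1.24, 0.978 and 0.683. The fibroblast, smooth muscle and endothelial sums were higher in replicate 3 of each condition, and their part in the values below was not tested.

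Of the 10 genes, 8 passed the filter on low counts and were tested between conditions. *Myl9*, a regulatory light chain of smooth muscle and nonmuscle myosin, had 0, 1 and 0 counts in the control libraries and 0, 1 and 0 in the *Thada*-activated libraries. *Vim*, which encodes the intermediate filament protein vimentin of mesenchymal cells, had 0, 1 and 1 counts in the control libraries and 2, 2 and 3 in the *Thada*-activated libraries. Both were at or under 3 counts in every library, so no fold change is given for them.

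By FPKM, *Actg1* had the highest level of the 10 genes in all 6 libraries. It stood at 499, 529 and 389 FPKM in the control libraries and at 534, 549 and 425 FPKM in the *Thada*-activated libraries. *Actb* stood at 299.6, 289 and 103 FPKM in the control libraries and at 314, 327 and 109.5 FPKM in the *Thada*-activated libraries. *Actb* was thus the gene in position 2 by FPKM in replicates 1 and 2 of both conditions and in position 4 in replicate 3 of both conditions, where *Tagln2* and *Tpm4* were above it. The mean over the 6 libraries was 139 FPKM for *Tagln2* and 109.7 FPKM for *Tpm4*. It was 40.4 FPKM for *Tpm1*, 24.6 FPKM for *Flna*, 15.3 FPKM for *Vcl* and 12.5 FPKM for *Srf*, and these genes held positions 5, 6, 7 and 8 in every library. *Flna* and *Vcl* were 15.4 and 14.1 FPKM in control replicate 3, the library in which they were nearest to each other. *Tagln2* and *Tpm4* did not keep their order, since *Tpm4* was above *Tagln2* in control replicate 3.

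*Actb*, on chromosome 5 (GRCm38, 142903115 to 142906754, Entrez gene 11461), had 534, 505 and 183 normalized CPM in control replicates 1, 2 and 3 and 553, 578 and 192 in *Thada*-activated replicates 1, 2 and 3. Replicate 3 was low in both conditions, and the conditions overlapped. Its level in replicate 3 was 2.84-fold lower than in replicates 1 and 2 among control libraries and 2.94-fold lower among *Thada*-activated libraries, and in bulk RNA fewer cells that transcribe *Actb* and less *Actb* RNA per cell cannot be told apart. *Actg1*, on chromosome 11 (120345687 to 120348495, Entrez gene 11465), had 884, 919 and 689 normalized CPM in the control libraries and 933, 962 and 740.0 in the *Thada*-activated libraries. Replicate 3 was again the lowest library of each condition, 1.31-fold below the mean of replicates 1 and 2 among control and 1.28-fold below it among *Thada*-activated libraries. The conditions overlapped for *Actg1* too. The ratio of *Actb* to *Actg1* in FPKM was 0.600, 0.546 and 0.2635 in the control libraries and 0.588, 0.596 and 0.258 in the *Thada*-activated libraries, so the β-actin share of the actins was low in replicate 3 of both conditions and overlapped between conditions.

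The coding sequences of *Actb* and *Actg1* are alike, and how reads were shared between them bears on these values. In the GENCODE M21 transcripts (GRCm38) with the longest coding sequences, 1000 of 1128 coding bases were the same (88.7%), and the longest stretch of identical bases was 62 bases. As deposited, and with no tolerance, the estimated counts of *Actg1* were whole numbers in 6 of 6 libraries, those of *Actb* in 5 of 6 and those of *Gapdh* in 0 of 6, beside 91.1% to 91.9% of all genes in a library. Counts per gene that are not whole can arise where reads are divided between transcripts of different genes. How reads were shared between *Actb* and *Actg1* was not tested, and reads of pseudogenes were not separated here.

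*Flna*, on the X chromosome (74219271 to 74249852), encodes filamin A, which crosslinks actin filaments and ties them to the membrane. It had 233, 228 and 127 normalized CPM in the control libraries and 231, 243 and 150.4 in the *Thada*-activated libraries. Replicate 3 was the lowest library of each condition, 1.82-fold below the other replicates among control and 1.57-fold below them among *Thada*-activated libraries. *Tagln2*, on chromosome 1 (172500246 to 172507375), encodes transgelin-2, an actin-binding protein of the calponin family. It had 183, 170.1 and 141 normalized CPM in the control libraries and 191, 190.1 and 151 in the *Thada*-activated libraries, again with the lowest value of each condition in replicate 3. *Vcl*, on chromosome 14 (20929378 to 21033676), encodes vinculin, which joins actin to focal adhesions and cell junctions. It had 83.3, 82.4 and 72.8 normalized CPM in the control libraries and 80.7, 81.9 and 66.5 in the *Thada*-activated libraries. Replicate 3 was the lowest in both conditions, but 1.14-fold and 1.22-fold below the mean of the other replicates, far less than for *Actb*.

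Tropomyosins lie along actin filaments and govern which proteins bind them. *Tpm1*, on chromosome 9 (66998440 to 67049649), had 64.4, 59.7 and 71.5 normalized CPM in the control libraries and 63.5, 59.1 and 67.3 in the *Thada*-activated libraries. *Tpm4*, on chromosome 8 (72135292 to 72160991), had 196, 211 and 238 normalized CPM in the control libraries and 207, 198 and 218 in the *Thada*-activated libraries. For both tropomyosins replicate 3 was the highest library of each condition, opposite to the actins. *Srf*, on chromosome 17 (46546838 to 46557962), encodes the transcription factor itself. It had 48.3, 44.8 and 45.9 normalized CPM in the control libraries and 47.6, 48.0 and 42.5 in the *Thada*-activated libraries, and its replicate 3 was between the others in control and lowest in *Thada*-activated cells.

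**Figure D1:**
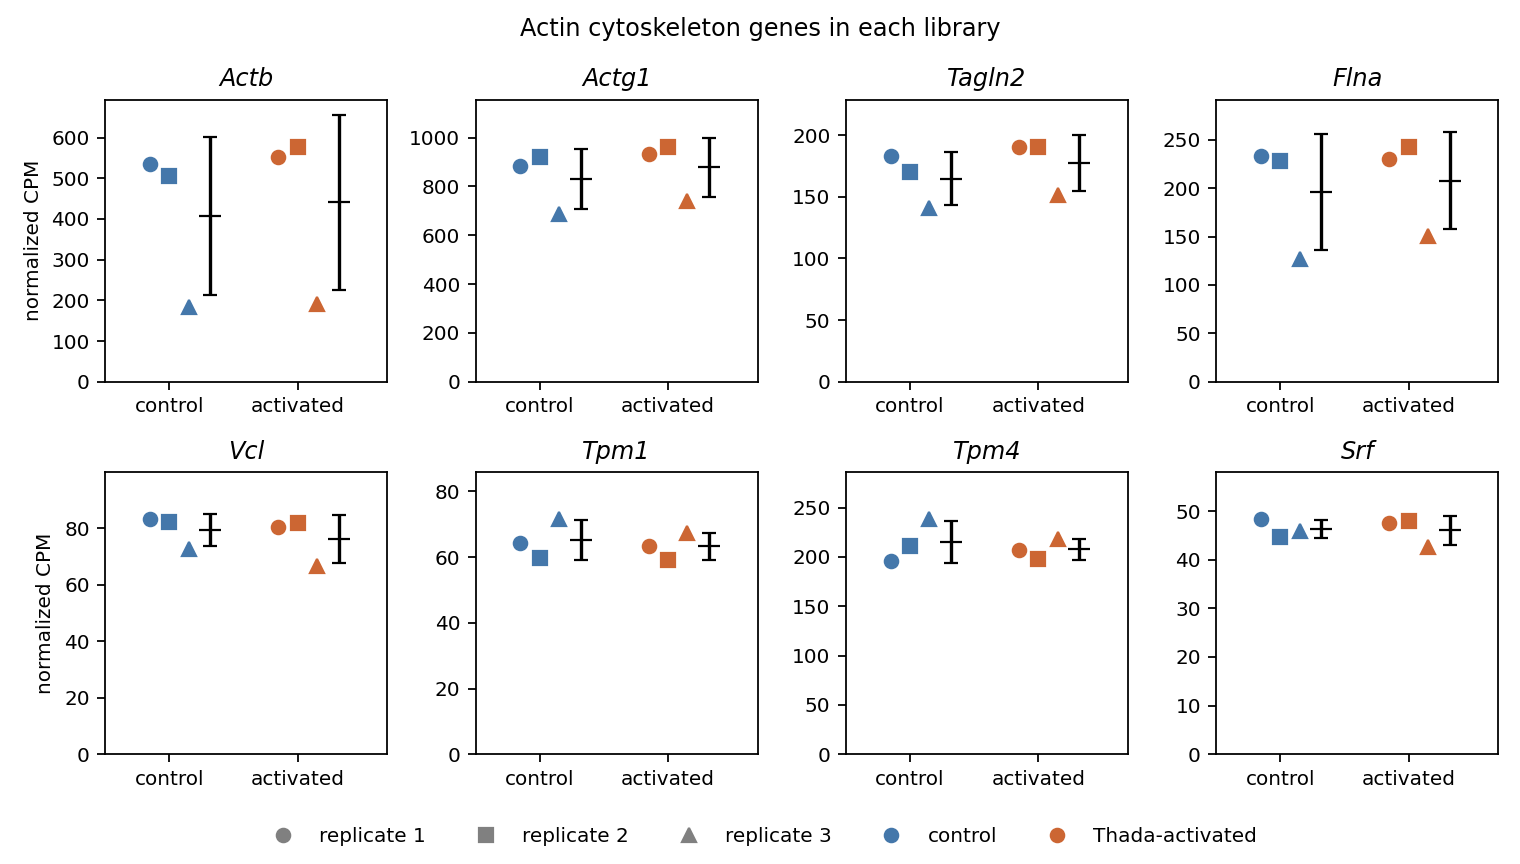
Normalized CPM (vertical axes, starting at 0) of the 8 actin cytoskeleton genes that passed the filter, in 3 control (blue) and 3 *Thada*-activated (orange) libraries, with the replicate number given by the shape and the mean ± SD of each condition as a black line with bars. *Actb* sits between 505 and 578 in replicates 1 and 2 and at 183 and 192 in replicate 3, while *Tpm1*, *Tpm4* and *Srf* vary little.

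On the log2 scale, replicate 3 minus the mean of replicates 1 and 2 was -1.51 for *Actb* in control and -1.56 in *Thada*-activated libraries. The values were -0.86 and -0.65 for *Flna*, -0.39 and -0.36 for *Actg1*, -0.32 and -0.33 for *Tagln2*, and -0.19 and -0.29 for *Vcl*. They were -0.019 and -0.17 for *Srf*, 0.21 and 0.14 for *Tpm1*, and 0.23 and 0.11 for *Tpm4*. Of the 8 genes, 5 were lower in replicate 3 than in either other replicate of both conditions, beside 39% of the 12516 tested genes, and 2 were higher, beside 39.1%. *Actb* and *Flna* were over 1.5-fold lower in both conditions, beside 12.2% of tested genes, and 0 of the 8 were over 1.5-fold higher, beside 12.8%. Because this difference was in view when the genes were chosen, nothing is read from these counts. The median over all tested genes was 0.0014 in control and 0.0029 in *Thada*-activated libraries, and under each other scaling tried it lay between -0.012 and 0.055.

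Between conditions, the quasi-likelihood test of edgeR called 0 of the 8 tested genes, beside 0% of all 12516 tested genes. A call took a p under 0.05 after Benjamini-Hochberg adjustment and a difference of over 1.5-fold. At an unadjusted p under 0.05 there were 0 of the 8 and 101 of all tested genes (0.807%), and limma on FPKM called 0 genes and DESeq2 called 5, none of them among the 8. The replicate numbers were taken as pairs, although no label says that they are. Replicates 1 and 2 correlated no more with their own number (0.667 and 0.671) than crossed (0.705 and 0.726), so the pairing rests on replicate 3. A fit that also held the replicate number as a block called 19 genes (0.152%), of which 0 were among the 8. The means in normalized CPM were 407 ± 195 (SD, n = 3) in control and 441 ± 216 (SD, n = 3) in *Thada*-activated cells for *Actb*, and 831 ± 124 and 879 ± 121 for *Actg1*. Most of the spread within a condition was that of replicate 3. The log2 fold change of *Actb* was 0.11 with an SE of 0.56 (edgeR, adjusted p = 1.00), and with the block it was 0.11 with an SE of 0.061 (edgeR, adjusted p = 0.595). *Actb* was higher in the *Thada*-activated library in 3 of 3 pairs of the same replicate number, by 0.050, 0.19 and 0.072 on the log2 scale.

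The remaining log2 fold changes lay between -0.057 for *Vcl* and 0.11 for *Tagln2*, and the lowest blocked adjusted p of the 8 genes was 0.576, for *Tagln2* (edgeR). *Actg1* and *Tagln2* were each higher in the *Thada*-activated library in 3 of 3 pairs, and *Tpm1* and *Vcl* were each lower there in 3 of 3. For *Tpm1* this holds only as numbered, since *Thada*-activated replicate 1 (63.5 normalized CPM) was above control replicate 2 (59.7). The share of all tested genes with 3 of 3 was not counted. The control and *Thada*-activated libraries did not overlap for 0 of the 8 genes, beside 5.4% of all tested genes. A p that misses the threshold does not show that the levels were the same. The median log2 fold change was 0.036 over the 8 genes and -0.0040 over all tested genes. In control and *Thada*-activated libraries without replicate 3, 68 genes of the whole table were called, and 0 of them were among the 8.

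Of the 6 actin genes 3 were tested, and 0 were called without or with the block. Among the actins other than *Actb* and *Actg1*, *Acta1* of skeletal muscle was the only one to pass the filter, at 1.64, 1.11 and 1.66 normalized CPM in control and 2.03, 1.72 and 1.59 in *Thada*-activated libraries. The smooth muscle actins *Acta2* and *Actg2* were at or under 3 counts in every library. Of 8 genes of SRF and its cofactors 6 were tested, 0 were called, and 2 were lowest, 2 highest and 2 neither in replicate 3 of both conditions. *Mkl1* (MRTF-A) had 26.1, 25.5 and 22.3 normalized CPM in control and 28.6, 30.2 and 19.7 in *Thada*-activated libraries, and was lowest in replicate 3 of both. *Mkl2* (MRTF-B) had 40.3, 39.6 and 29.5 normalized CPM in control and 40.2, 44.7 and 35.0 in *Thada*-activated libraries, with replicate 3 again lowest. Of the ternary complex factors, the other partners of SRF, *Elk3* was highest in replicate 3, with 129 normalized CPM there in both conditions against 82.2 to 92.1 in the other libraries. *Elk1* lay between 47.4 and 54.2 normalized CPM in all 6 libraries. *Myocd*, the cofactor of heart and smooth muscle, was at or under 3 counts in every library.

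A list of 22 genes known as targets of actin, MRTF and SRF held 20 genes of the table, of which 13 were tested, 8 of them among the genes above. Between conditions 0 of the 13 were called, with or without the block. Replicate 3 was lowest in both conditions for 9, highest for 3 and neither for 1. Over all tested genes 39% were lowest and 39.1% highest, which are the shares to set beside this list and those below; no difference between lists was tested. Among the 5 tested targets outside the genes above, 4 were lowest in replicate 3 and 1 was highest. Of the 8 immediate early genes that SRF controls with ternary complex factors 7 were tested, and 2 were lowest, 2 highest and 3 neither. *Egr1*, the most abundant of them, had 149, 163 and 63.8 normalized CPM in control and 117, 130.4 and 60.5 in *Thada*-activated libraries. Replicate 3 was low in both conditions and *Egr1* was lower in the *Thada*-activated library of each pair, but with the block its adjusted p was 0.209 (edgeR) and it was not called. *Junb* was opposite, with 57.8 and 58.1 normalized CPM in replicate 3 against 30.2 to 33.9 in the other libraries, while replicate 3 of *Mcl1* and *Ier2* differed from the other replicates by -0.36 to -0.054 on the log2 scale.

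Of 11 actin crosslinkers 8 were tested, and 6 were lowest (5 of 7 without *Flna*) and 2 highest in replicate 3 of both conditions. *Actn4* (α-actinin-4), *Sptan1* and *Sptbn1* (spectrins) were lower in replicate 3, with log2 differences between -0.49 and -0.21. Of 13 focal adhesion genes all 13 were tested, and 8 were lowest (7 of 12 without *Vcl*), 3 highest and 2 neither in replicate 3. *Parva* (α-parvin) had 138, 137 and 61.7 normalized CPM in control and 139, 135 and 89.6 in *Thada*-activated libraries, and was low in replicate 3. *Bcar1* and *Fermt2* were higher there, by 0.20 to 0.44 on the log2 scale, and *Ilk* was slightly lower, with differences of -0.11 and -0.082, so the adhesion genes did not share one direction.

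Of 10 genes of nonmuscle myosin II and its regulators, 9 were tested, and 6 were lowest, 2 highest and 1 neither in replicate 3. *Myh9*, the heavy chain of myosin IIA, had 183, 168 and 89.8 normalized CPM in control and 174, 189.8 and 96.9 in *Thada*-activated libraries. The light chain *Myl6* was lower in replicate 3 and the light chain *Myl12b* and the phosphatase subunit *Ppp1cb* were higher. Of 11 tropomyosin and calponin family genes, 8 were tested, with 3 lowest, 4 highest and 1 neither in replicate 3 (2 lowest and 2 highest of 5 without *Tagln2*, *Tpm1* and *Tpm4*). *Tpm3* had 157, 153 and 129.7 normalized CPM in control and 155, 157 and 113 in *Thada*-activated libraries, lowest in replicate 3, where *Tpm1* and *Tpm4* were highest.

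All 9 subunit genes of the Arp2/3 complex, which starts branched filaments, were tested, and 8 were highest and 0 lowest in replicate 3 of both conditions. *Arpc1a* had 157, 153 and 238 normalized CPM in control and 161, 156 and 237 in *Thada*-activated libraries, high in replicate 3 of both conditions. *Arpc2* had 145, 152 and 219 normalized CPM in control and 143, 151 and 220.4 in *Thada*-activated libraries, again highest in replicate 3. *Actr2* and *Actr3* were higher in replicate 3 by 0.17 to 0.39 on the log2 scale. Of 17 tested genes of monomer binding and turnover, 5 were lowest, 6 highest and 6 neither. *Cfl1* (cofilin-1), the most abundant, had 688, 650.0 and 548 normalized CPM in control and 694, 706 and 569 in *Thada*-activated libraries, while *Dstn* and *Cap1* were higher in replicate 3 and *Tmsb4x* (thymosin β4) was lower.

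Other filament systems were counted for comparison. Of 13 genes of intermediate filaments and lamins 10 were tested, and 9 were lowest and 1 highest in replicate 3. *Nefm* had 417, 363 and 197 normalized CPM in control and 382, 386 and 252 in *Thada*-activated libraries, with replicate 3 low in both. Of 10 tubulins all 10 were tested, with 5 lowest, 4 highest and 1 neither in replicate 3. *Tuba1b* was lower there, by log2 differences of -0.45 (control) and -0.74 (*Thada*-activated), and *Tubb5* was higher, with 0.57 and 0.058. The 13 lists covered actin and other cytoskeleton genes, SRF with its cofactors, and immediate early genes. With the 10 genes left out, 106 genes of these lists were tested, and 0 were called between conditions without or with the block. At an unadjusted p under 0.05 there were 3 of the 106 (2.83%) without the block, beside 0.807% of all tested genes. With the block there were 17 (16.0%), beside 10.4%. The conditions did not overlap for 9 of the 106 (8.49%), beside 5.4% of all tested genes. The median log2 difference of replicate 3 over the 106 was -0.042 (control) and -0.0089 (*Thada*-activated), near that of all tested genes, and 45 of the 106 were lowest, 39 highest and 22 neither in replicate 3 of both conditions.

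*Actb* was set beside *Gapdh*, *Tbp* and *Hprt*, which encode a glycolytic enzyme, the TATA-binding protein and an enzyme of purine salvage. *Gapdh* had 4115, 4074 and 2305 normalized CPM in control and 4270, 4402 and 2303 in *Thada*-activated libraries. It was low in replicate 3 of both conditions, by 1.78-fold and 1.88-fold, less than *Actb*. *Tbp* had 36.6, 32.8 and 34.1 normalized CPM in control and 35.1, 34.5 and 30.4 in *Thada*-activated libraries. *Hprt* had 129, 151 and 157 normalized CPM in control and 133, 134 and 158 in *Thada*-activated libraries. For *Tbp* no library stood far from the rest. *Hprt* was highest in replicate 3 of both conditions, 1.12-fold and 1.19-fold above replicates 1 and 2. Each such fold is against the mean log2 level of replicates 1 and 2.

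The SD of log2 normalized CPM over the 6 libraries was 0.79 for *Actb*, 0.45 for *Gapdh*, 0.13 for *Hprt* and 0.093 for *Tbp*. Among 17 genes, the actins *Actb* and *Actg1* with 15 reference genes, *Actb* had the highest SD, *Gapdh* was in position 9 and *Tbp* in position 17. Of all tested genes 5.15% had a higher SD than *Actb*, and 88.7% had a higher SD than *Tbp*. The highest library of *Actb* was 3.16 times its lowest, against 1.91 times for *Gapdh*, 1.23 times for *Hprt* and 1.21 times for *Tbp*. Over replicates 1 and 2 alone the same figure was 1.14 times for *Actb*, 1.08 times for *Gapdh*, 1.17 times for *Hprt* and 1.12 times for *Tbp*, so without replicate 3 *Hprt* varied more than *Actb*. The spread of *Actb* therefore rested on replicate 3, the contrast that was in view when it was chosen.

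Of the 12 other reference genes, 6 were lowest, 5 highest and 1 neither in replicate 3 of both conditions. *Tfrc* (transferrin receptor) had 191, 212 and 59.6 normalized CPM in control and 193, 193 and 84.8 in *Thada*-activated libraries, with log2 differences of replicate 3 of -1.76 and -1.19. *Ppia*, *Pgk1* and *Gusb* were also over 1.5-fold lower in replicate 3 of both conditions, while *B2m*, *Rpl13a* and *Eef2* were over 1.5-fold higher. *B2m* had 51.2, 48.9 and 113 normalized CPM in control and 49.4, 43.8 and 85.8 in *Thada*-activated libraries. *Ywhaz* was lower and *Rplp0* and *Sdha* were higher in replicate 3, with log2 differences between -0.55 and 0.42. Between conditions 0 of the 15 reference genes were called without or with the block, and 0 of the 15 had libraries that did not overlap, beside 5.4% of all tested genes.

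**Figure D2:**
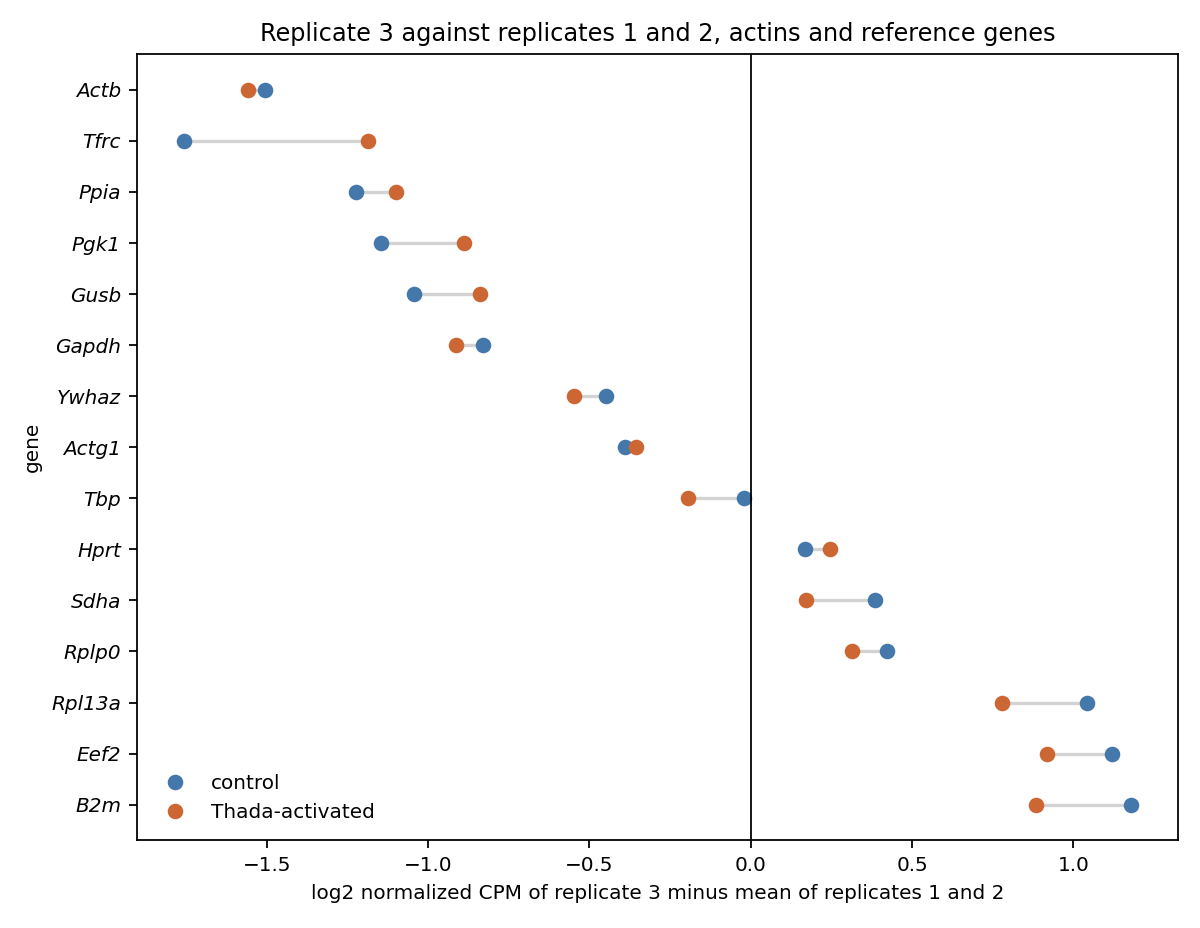
Log2 normalized CPM of replicate 3 minus the mean of replicates 1 and 2 (horizontal axis) for *Actb*, *Actg1* and the reference genes named here, with control libraries in blue and *Thada*-activated libraries in orange. *Actb* lies at -1.51 and -1.56, *Gapdh* at -0.83 and -0.91, *Tbp* at -0.021 and -0.196, and *B2m* at 1.18 and 0.88.

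The ratio of the *Actb* count to the geometric mean of the *Gapdh*, *Tbp* and *Hprt* counts, which is not per length, was 1.99, 1.86 and 0.791 in control replicates 1, 2 and 3 and 2.04, 2.12 and 0.862 in *Thada*-activated replicates 1, 2 and 3. Replicate 3 was low in both conditions and the conditions overlapped. The mean log2 ratio was 0.52 ± 0.74 (SD, n = 3) in control and 0.63 ± 0.73 (SD, n = 3) in *Thada*-activated cells, a difference of 0.12 (exact permutation test, p = 0.5, two-sided). With 3 against 3 libraries p cannot go below 0.1. The difference was 0.050 with *Gapdh* alone, 0.16 with *Tbp* alone and 0.14 with *Hprt* alone, each smaller than the SD within conditions. Its sign changed with the library left out, and it was -0.31 without control replicate 3 and 0.54 without *Thada*-activated replicate 3, while taken by pairs it was 0.036, 0.19 and 0.12, higher in 3 of 3.

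The choice of reference gene was then followed through to *Thada*, whose level differed between conditions by design. The ratio of the *Thada* count to the *Actb* count was 0.0525, 0.0573 and 0.0942 in the control libraries and 0.104, 0.0973 and 0.256 in the *Thada*-activated libraries. Replicate 3 was the highest library of each condition, and the lowest *Thada*-activated ratio was 1.03 times the highest control ratio, so the conditions came close to overlapping. The mean log2 ratio was -3.93 ± 0.45 (SD, n = 3) in control and -2.87 ± 0.78 (SD, n = 3) in *Thada*-activated cells, a difference of 1.06 or 2.09-fold (two-sided p = 0.1 by exact permutation, which cannot be lower here). Without *Thada*-activated replicate 3 the difference was 0.61, and without control replicate 3 it was 1.32. By normalized CPM the log2 fold change of *Thada* was 1.13 without a block (edgeR, adjusted p = 1.00) and 1.15 with it (edgeR, adjusted p = 0.000410), and *Thada* was higher in the *Thada*-activated library in 3 of 3 pairs.

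Set against *Tbp*, the *Thada* ratio was 0.766, 0.883 and 0.504 in the control libraries and 1.63, 1.63 and 1.62 in the *Thada*-activated libraries. The *Thada*-activated libraries were nearly the same, and the lowest of them was 1.83 times the highest control library. The same figure was 1.71 times for *Gapdh*, 1.43 times for *Hprt* and 1.84 times for *Actg1*. The log2 difference between conditions was 1.11 with *Gapdh*, 1.22 with *Tbp*, 1.205 with *Hprt* and 1.08 with *Actg1*. With *Actb* it was 1.06, and whether these values differ from each other was not tested. The SD of the log2 ratio within conditions was 0.64 with *Actb*, 0.29 with *Gapdh*, 0.30 with *Tbp*, 0.41 with *Hprt* and 0.15 with *Actg1*. Within conditions *Actb* thus gave the widest spread of these 5 genes, which holds the replicate 3 difference on which *Actb* was chosen. Over all 17 genes the widest was 0.90, with *B2m*. *Thada* as normalized CPM had an SD of 0.31 and was itself lower in replicate 3, by -0.73 (control) and -0.21 (*Thada*-activated) on the log2 scale. The spread of the ratio therefore does not rank the reference genes by their own stability. Taken by pairs of the same replicate number, the SD of the 3 log2 differences was 0.35 with *Actb*, 0.35 with *Gapdh*, 0.41 with *Tbp*, 0.27 with *Hprt* and 0.28 with *Actg1*, and there the widest was *Tbp*. Over all 17 genes the fold of *Thada* ran from 2.05 with *Tfrc* to 2.59 with *B2m*, and the conditions overlapped with 3 of them, *B2m*, *Rpl13a* and *Eef2*.

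**Figure D3:**
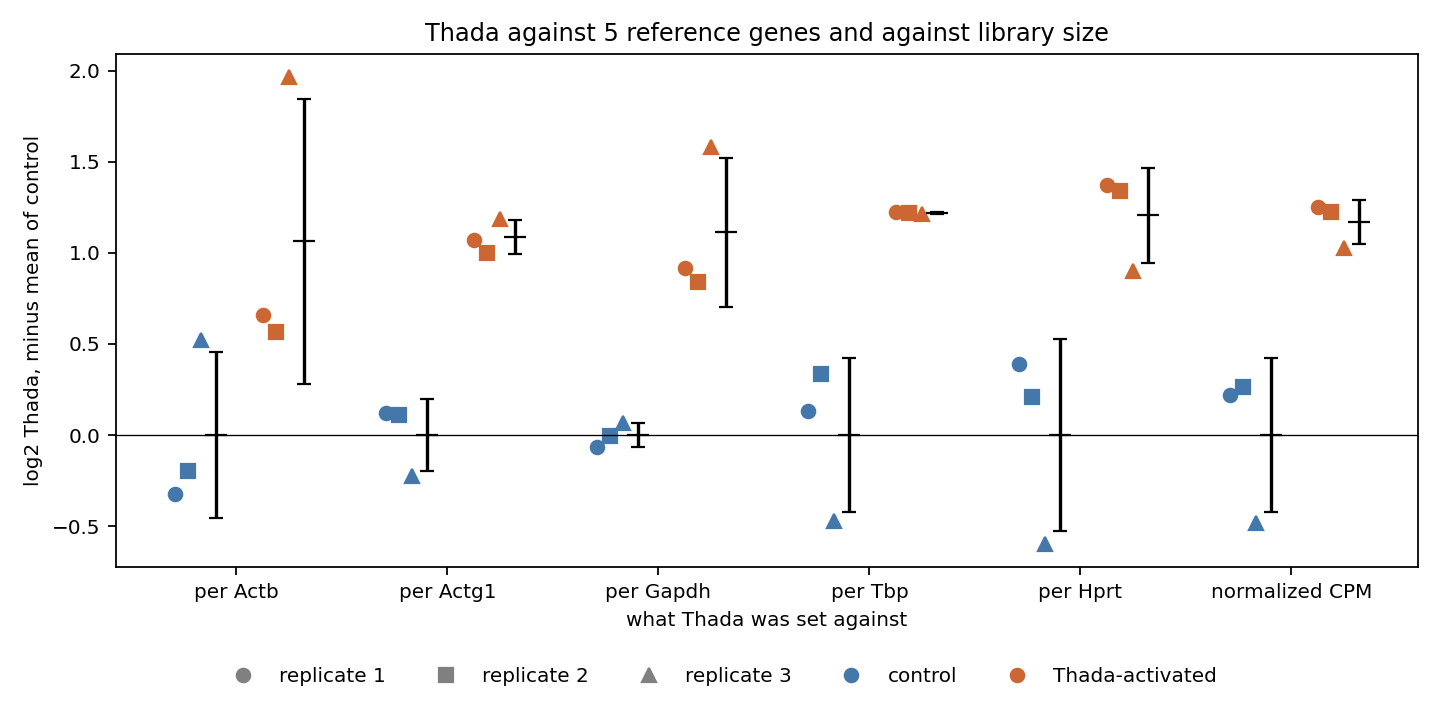
Log2 *Thada* after setting it against the count of *Actb*, *Actg1*, *Gapdh*, *Tbp* or *Hprt* in the same library, or as log2 normalized CPM (horizontal axis), minus the mean of the control libraries (vertical axis); shapes are replicate numbers, colours the conditions, and black bars the mean ± SD of 3 libraries. Against *Actb*, control replicate 3 lies just below *Thada*-activated replicates 1 and 2, and against the other 4 genes the conditions are further apart.

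The primers with which the study measured β-actin mRNA are shown because they fix which piece of *Actb* served as the reference. Capitals mark bases in the 3′ UTR and lower case bases of the coding sequence, stop codon included, each 5′ to 3′ as ordered:
forward: gcaagtgcttctagGCGGAC
reverse: AAGAAAGGGTGTAAAACGCAGC
Both match *Actb* of GENCODE M21 (GRCm38, minus strand) in exon 6 of 6, the forward primer at chr5:142903792-142903811 across the stop codon and the reverse primer at chr5:142903761-142903782 in the 3′ UTR. The product is 51 bases long. Among 141767 transcripts, those that held both primers without a mismatch were 2 transcripts of 1 gene, *Actb*. The best place in the *Actg1* transcript left 3 mismatches for the forward and 9 for the reverse primer. The product thus lies in one exon, and the counts above cover the whole gene.

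Promoter sequence was compared because several of the genes are known targets of SRF. CArG boxes, the sites that SRF binds, were searched in the RefSeq promoters (GRCm38.p6), which run from 250 bases before to 50 bases after each gene's start; a CArG box reads the same on both strands, as 2 C, then 6 bases that are each A or T, then 2 G. Promoters were matched for 9 of the 10 genes, all but *Actb*, and 4 of the 9 held a box, beside 1.63% of all 32851 promoters. The boxes are shown in capitals with up to 10 bases on each side, because they are what these promoters share:
Actg1: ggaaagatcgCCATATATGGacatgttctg
Vcl: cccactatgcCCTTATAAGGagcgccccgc
Myl9: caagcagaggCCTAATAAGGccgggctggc
Srf, first: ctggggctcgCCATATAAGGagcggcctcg
Srf, second: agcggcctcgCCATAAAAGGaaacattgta
They lie at chr11:120348566-120348595 (minus strand), chr14:20929161-20929190 (plus strand), chr2:156775293-156775322 (plus strand), chr17:46556225-46556254 and chr17:46556205-46556234 (both minus strand). The box ended 80 bases before the RefSeq start of *Actg1*, 217 before that of *Vcl*, 151 before that of *Myl9*, and 72 and 52 before that of *Srf*. RefSeq starts are not the limits from the authors' table given above, within which the boxes of *Srf* lie. No box was in the windows of *Tagln2*, *Tpm1*, *Tpm4*, *Flna* and *Vim*, which says only that these letters are not there. Of the genes with a box, *Actg1* and *Vcl* were lowest in replicate 3 of both conditions, *Srf* was not, and *Myl9* was at or under 3 counts, while *Flna* had no box and was over 1.5-fold lower. A match is a description and no evidence that SRF binds there in MIN6 cells.

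The genes whose log2 normalized CPM over the 6 libraries was most like that of *Actb*, among 9730 genes with a mean of at least 10 normalized CPM and with the 10 genes left out, were *Pdcd11*, *Zdhhc16*, *Ptp4a3*, *Tln1* and *Srsf2*. Their Pearson r with *Actb* was between 0.999 and 1.00 over 6 libraries. An r over 0.95 was found for 1949 of the 9730 genes (20.03%), so likeness to *Actb* was common, and over 6 libraries of which 2 stand apart r mostly measures that gap. The sizes differed: replicate 3 minus the mean of the others was -1.25 in both conditions for *Tln1*, which encodes the focal adhesion protein talin-1, and -0.30 and -0.31 for *Zdhhc16*. Among 2205 genes with a mean of at least 100 normalized CPM, 24 were further below the other replicates than *Actb* in replicate 3 of both conditions.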

How the data were processed

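The sample labels gave the conditions and replicate numbers. The authors deposited an estimated count per gene and library, without normalization, and, in a table of the series, FPKM values. The submitters' processing notes name Bowtie2, RSEM, DESeq2 and GRCm38. The table's averages, TPM values and the authors' own DESeq2 columns (log2 fold change, p and q) were not used. Estimated counts were rounded, filtered by filterByExpr, scaled by TMM and tested in edgeR 4.0.16 (R 4.3.3; glmQLFit with robust estimation) over all 12516 genes kept, with Benjamini-Hochberg adjustment. Single ratios were compared by an exact permutation test, two-sided. DESeq2 1.42.0 and limma 3.58.1, on log2(FPKM + 1) and log2(FPKM + 0.1), were alternatives. The floor was 3 counts in a library, which covers counting error only. Strands came from GENCODE M21 and start and end positions of genes from the authors' table.

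After removing each condition's mean, the correlation across genes between libraries that share a number was 0.667 (replicate 1), 0.671 (replicate 2) and 0.869 (replicate 3), all over 0.1, so the numbers were taken as pairs. Crossing replicates 1 and 2 gave 0.705 and 0.726, so the pairing rests on replicate 3.

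The members and lists were chosen with earlier results of these data known. Named are the 10 genes, the reference genes, *Thada*, up to 4 genes per list with the highest mean normalized CPM, and the 5 genes most like *Actb* over the libraries. Other genes were named after their values were seen. Some genes and 1 list are counted in totals but not reported here by name.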

Additional observations from a re-analysis of the deposited data

How the results depend on the processing

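Under every alternative tried (the DESeq2 Wald test or its size factors, no filter, at least 10 counts in every library, limma on FPKM, library sizes without the 20 top genes, replicates 1 and 2 alone, each library left out) 0 of the 8 tested genes were called. Over the whole table the DESeq2 Wald test called 5 genes and replicates 1 and 2 alone called 68. The other fits of this kind called 0 of all genes, so their 0 says nothing particular to the 8. With the replicate block, and with each pair of libraries left out of that fit, an alternative chosen after seeing the data, the count was 0 too, so the block changed no call among these genes; over the whole table those fits without replicate 1, 2 or 3 called 43, 18 and 70 genes, DESeq2 with the block 15, and the block alone 19.

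Leaving out 1 library gave log2 fold changes from -0.24 to 0.47 for *Actb*, -0.038 to 0.19 for *Actg1*, -0.15 to 0.27 for *Flna*, -0.10 to 0.029 for *Tpm1*, -0.11 to 0.028 for *Tpm4*, -0.12 to 0.032 for *Vcl* and -0.041 to 0.044 for *Srf*, so without pairing their signs turned with the library left out, while *Tagln2* stayed above 0 but ran from 0.0063 without control replicate 3 to 0.21 without *Thada*-activated replicate 3. Taken by pairs as numbered, *Actb* and *Actg1* were higher in 3 of 3 and *Tpm1* and *Vcl* lower in 3 of 3. For *Tpm1* this rests on the numbering of replicates 1 and 2. With all libraries *Srf* was -0.0092, and it turned to 0.039 with replicates 1 and 2 alone, to 0.021 by limma on log2(FPKM + 1), to 0.023 on log2(FPKM + 0.1), and to 0.0024 without the 20 top genes; the cause was not tested. Over the alternatives the adjusted p of *Actb* ran from 0.160 (replicates 1 and 2 alone) to 1.00.

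*Actb* over *Gapdh*, *Tbp* and *Hprt* ran from -0.31 to 0.54 with 1 library left out. *Thada* over *Actb* ran from 0.61 to 1.32 and was 0.87 with replicates 1 and 2 alone. Its mean over pairs equals the difference of means by arithmetic.

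In both conditions the replicate 3 differences of the 8 genes kept their signs under each scaling tried, except that of *Srf* in control, which went from -0.019 to 0.0081 without the 20 top genes. As a mean over the conditions that of *Tagln2* was -0.33 with DESeq2 size factors and FPKM, -0.32 with library totals and -0.29 without the 20 top genes, where those of *Actb* and *Actg1* were -1.49 and -0.33. No fold change is given for *Myl9* and *Vim*, which were at or under 3 counts in every library.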

Other observations

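Among the 13 lists of cytoskeleton, SRF and immediate early genes, the gene with the lowest blocked adjusted p was *Krt19*. It is a keratin of duct and other simple epithelia, and is singled out after its values were seen. It had 0.527, 0.524 and 0.344 normalized CPM in control and 2.36, 1.495 and 1.02 in *Thada*-activated libraries. All 3 *Thada*-activated libraries were above all 3 control libraries, at levels of few counts. Its log2 fold change was 1.79 without the block and 1.78 with it (edgeR, adjusted p = 0.0548 with the block), so it was not called. *Krt7* had 150.0, 151 and 72.7 normalized CPM in control and 182, 184 and 96.2 in *Thada*-activated libraries, higher in 3 of 3 pairs, with a blocked adjusted p of 0.0651 (edgeR). *Krt8* had 45.8, 45.3 and 44.3 normalized CPM in control and 58.6, 56.8 and 49.1 in *Thada*-activated libraries, which did not overlap, with a blocked adjusted p of 0.183 (edgeR). *Krt18*, the other keratin tested, had a log2 fold change of 0.17 and a blocked adjusted p of 0.838 (edgeR), and its conditions overlapped. None of the 4 keratins passed the threshold.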
